A study of Mus musculus with 9 samples.

Results

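The genes described here are 10 genes of the cytotoxic granule, of 18349 genes listed in each library, in RNA of the mouse iris: the granzymes Gzma, Gzmb, Gzmc, Gzmd, Gzme, Gzmf, Gzmg and Gzmk, the pore-forming protein gene Prf1 and the granule membrane protein gene Nkg7. They were chosen by symbol, and all 10 were listed in all 9 libraries. The 3 groups held 3 libraries each, and 1 library pooled 3 irises of C57BL/6J mice collected at 10 weeks of age. In the Sham VEGFR3 fl/fl group the cornea received PBS at 6 weeks. In the injured VEGFR3 fl/fl group it was covered for 60 seconds with filter paper carrying 0.5 μL of 1 M NaOH, 28 days before collection. The injured VEGFR3 iLECko group received the same alkali injury and carried the floxed alleles together with a tamoxifen-inducible Cre under Prox1, a gene of lymphatic endothelium. The labels give all 9 samples, Sham included, the same course of tamoxifen, at 80 mg/kg from day 13 to day 17 after injury. The injured VEGFR3 fl/fl mice were littermates of the iLECko mice and are tagged WT in the labels. For iLECko replicates 2 and 3 the genotype tag names another VEGFR number, while their titles and descriptions name VEGFR3, which was followed here. Flt4, the gene for VEGFR3, had 277, 353 and 400 counts in the injured VEGFR3 fl/fl group. Values are listed for replicates 1, 2 and 3 in that order throughout. Flt4 had 478, 370 and 476 counts in the libraries labelled iLECko, and 282, 237 and 265 in Sham libraries. Whole-iris RNA thus showed no loss of Flt4, but it cannot separate lymphatic endothelium from other cells, so deletion there was not tested. The paper describes Sham irises as free of lymphatic vessels, and their growth after injury as blocked in iLECko mice. The injured VEGFR3 fl/fl libraries are called injured controls below, and those labelled injured VEGFR3 iLECko are called iLECko libraries by their label.

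Cytotoxic T cells and natural killer (NK) cells store granzymes, a family of serine proteases, in secretory granules and release them onto target cells. Perforin, the product of Prf1, lets granzymes into the target cell, where granzyme B cleaves caspases and other substrates that lead to apoptosis. Granzymes A and K are tryptases encoded side by side, while the mouse genes for granzymes B to G lie in a cluster that arose by gene duplication. Granzymes C to G are rodent-specific copies best known from T cells and NK cells that have been activated for a long time and from NK cells of the pregnant uterus.

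In GRCm38.p6, the assembly that matches the mm10 build named in the submitters' processing notes, Gzme, Gzmd, Gzmg, Gzmn, Gzmf, Gzmc and Gzmb follow each other on the minus strand of chromosome 14, from chr14:56117619 to chr14:56262334 (144.7 kb). Gzmn, a seventh gene of this cluster, is not among the 10 genes and is given beside them because it lies between them. Gzma (chr13:113093824-113100981) and Gzmk (chr13:113171630-113180965) are neighbours on chromosome 13, Prf1 lies at chr10:61297751-61304684 and Nkg7 at chr7:43437138-43438246. Positions and promoter sequences were taken from RefSeq, and transcripts of the same assembly from GENCODE M21.

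The reads were 50 bases long, so the copies of the cluster were compared over windows of that length. The coding sequences of Gzmd and Gzme are identical at 94.8% of aligned bases, those of Gzme and Gzmg at 90.0% and those of Gzmd and Gzmg at 89.2%. Gzmc shares 75.9% with Gzme, and Gzmb 77.9% with Gzmc. The pairs of sequences below show what a read can and cannot tell apart in exon 2 of 5 of Gzmd and Gzme, and capitals mark the bases at which the pair differs. The first pair, with 0 differences, lies at chr14:56131331-56131380 in Gzmd and chr14:56119399-56119448 in Gzme, both on the minus strand.

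Gzmd, identical stretch: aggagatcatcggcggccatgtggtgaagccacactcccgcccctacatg
Gzme, identical stretch: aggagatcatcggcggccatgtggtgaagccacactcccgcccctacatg

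A read from that stretch belongs to either gene. The second pair, at chr14:56131293-56131342 and chr14:56119361-56119410, differs at 8 of 50 bases, the most in any coding window within 1 exon of both genes.

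Gzmd, most different stretch: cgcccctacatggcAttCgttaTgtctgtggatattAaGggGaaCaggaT
Gzme, most different stretch: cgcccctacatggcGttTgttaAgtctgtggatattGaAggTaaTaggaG

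Of 497 such coding windows, 68 were identical and 282 differed at no more than 2 bases. Over whole transcripts, every window of Gzma, Gzmb, Gzmk, Prf1 and Nkg7 was unique among all transcripts, against 95.9% of the windows of Gzmc, 92.6% of Gzmf, 80.2% of Gzmg, 79.4% of Gzme and 78.1% of Gzmd. With up to 2 mismatches allowed within the cluster, 37.2% of the windows of Gzmd and 35.1% of those of Gzme remained their own. The split of counts between Gzmd and Gzme, and the low counts of Gzmf and Gzmg, are therefore uncertain, and the sum of Gzmc to Gzmg is given beside the single genes. The program that divided reads among copies is not given in the sources used here.

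**Figure D1:**
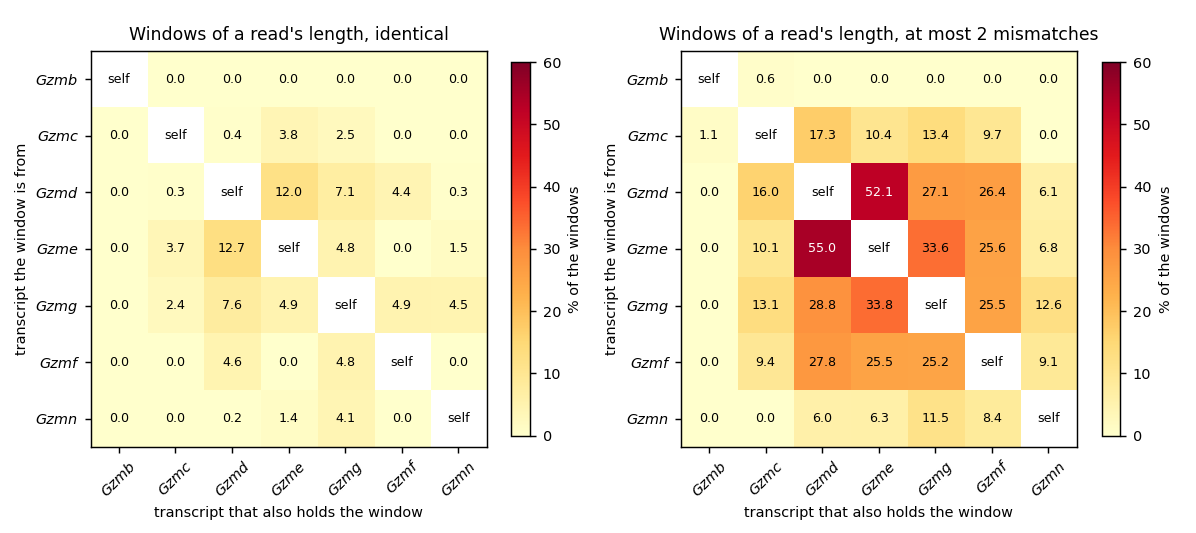
Percent of the 50-base windows of each transcript of the chromosome 14 granzyme cluster (rows) that also occur in another transcript of the cluster (columns), identical (left) or with at most 2 mismatches (right). Gzmd and Gzme share 12.0% and 12.7% of their windows exactly and 52.1% and 55.0% with at most 2 mismatches, while Gzmb shares at most 0.649% with any other.

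The promoters of the copies were compared as well, since several of these genes were high in the same libraries. Over the 300 bases from 250 before to 50 after the RefSeq start, Gzmd and Gzme aligned with 94.3% identity over 297 bases, and Gzmc with 86.1% to Gzmd and 87.0% to Gzme. Gzmb and Gzmn had no comparably long alignment with these. The stretch that follows was chosen because it holds, in the 5 genes from Gzmc to Gzmg, the letters TGTGGT bound by RUNX proteins and, 51 bases further on, the place of the letters TGACGTCA bound by CREB and ATF proteins. Both are in capitals, and all 5 stretches are read on the minus strand of chromosome 14.

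Gzmc, chr14:56234697-56234775: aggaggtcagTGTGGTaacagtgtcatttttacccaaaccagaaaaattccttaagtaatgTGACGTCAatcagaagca
Gzmd, chr14:56132637-56132715: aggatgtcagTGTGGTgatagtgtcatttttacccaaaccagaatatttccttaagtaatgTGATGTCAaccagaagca
Gzme, chr14:56120670-56120748: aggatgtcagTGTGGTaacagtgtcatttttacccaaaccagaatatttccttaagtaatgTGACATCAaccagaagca
Gzmf, chr14:56211472-56211550: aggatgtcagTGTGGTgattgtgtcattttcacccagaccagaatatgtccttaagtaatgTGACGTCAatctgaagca
Gzmg, chr14:56159639-56159717: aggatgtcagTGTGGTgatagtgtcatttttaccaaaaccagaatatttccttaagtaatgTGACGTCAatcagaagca

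All 8 letters of TGACGTCA were present in Gzmc, Gzmf and Gzmg, and 7 of 8 in Gzmd and in Gzme, the genes with the highest levels per length after injury. Searched on both strands, TGTGGT occurred in the promoter window of 6 of the 7 cluster genes (all but Gzmn), and in 16.8% of 32851 mouse promoter windows of this length. TGACGTCA occurred in 3 of the 7 and in 1.79% of all windows. How common a match of 7 of 8 letters is among all windows was not counted, and the window of Gzmb also holds one, AGACGTCA. Of the other letters searched, TGANTCA (AP-1; 7.81% of all windows) and TTCNNNGAA (STAT; 8.30%) occurred in the cluster in Gzmb, TATAAA (13.6%) in Gzmn, and AGGTGTGA (T-box; 1.28%) in none of the 7. TGTGGT was also found in the windows of Gzma, Prf1 and Nkg7, and not in that of Gzmk. TTCNNNGAA and AGGTGTGA were present in the window of Nkg7. These matches describe letters in a window and not bound sites.

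Total counts were 16617187 to 16838904 in the Sham, 17538981 to 18306359 in the injured control and 17561521 to 17591702 in the iLECko libraries. Expression is given in counts as deposited and in counts per 1e6 counts of the library (CPM) after TMM scaling. The quasi-likelihood test of edgeR was run on the 15010 genes that passed a filter on low counts, with Benjamini-Hochberg adjustment over them, and a gene was called when its adjusted p was under 0.05 and its change over 1.5-fold. A fold in words is the ratio of mean CPM, and a log2 fold change is the fitted value of edgeR. Gzma, Gzmb, Gzmc, Gzmd, Gzme and Nkg7 passed the filter. Gzmf, Gzmg, Gzmk and Prf1 did not, and are given by their counts and by two-sided exact permutation tests, which with 3 libraries against 3 cannot go below p = 0.1.

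**Figure D2:**
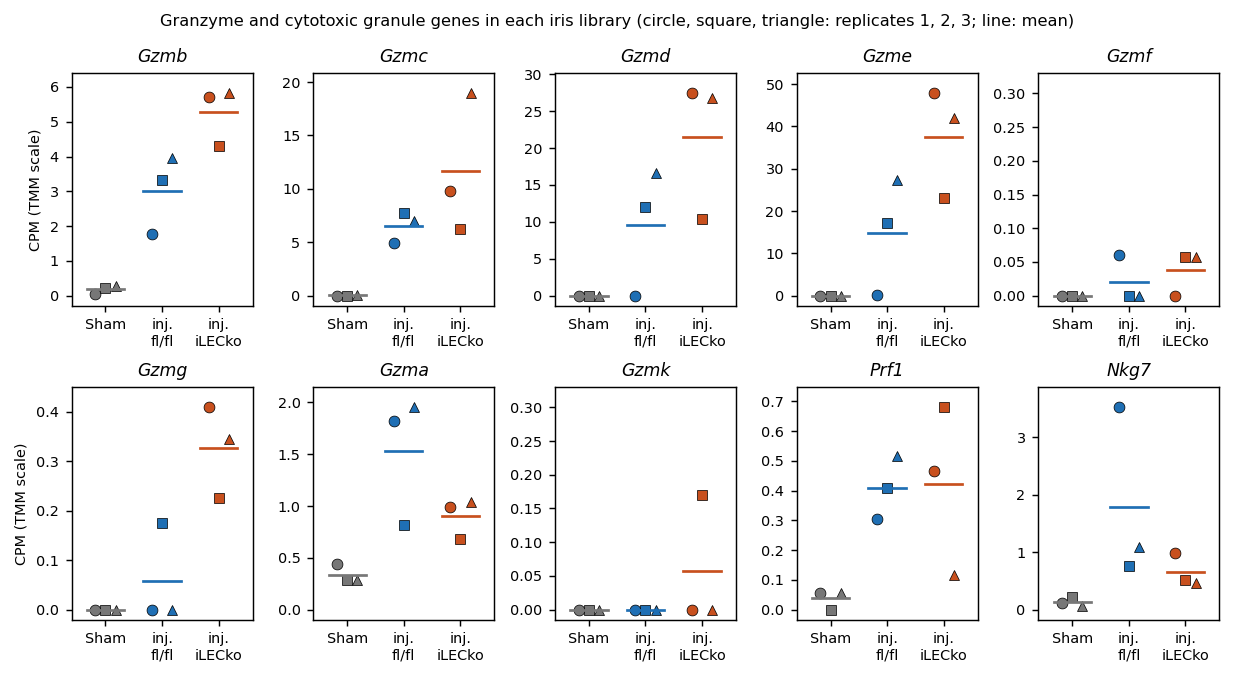
CPM on the TMM scale of each of the 10 genes in the 9 iris libraries, with circles, squares and triangles for replicates 1, 2 and 3 and a line at the mean of each group; each panel has its own axis. Gzmb and Gzmc were higher in all 6 injured libraries than in Sham, Gzmd and Gzme were near 0 in injured control replicate 1, and Nkg7 was highest there.

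After injury in VEGFR3 fl/fl mice (injured controls), the 6 tested genes were all called higher than in Sham. Gzma, Nkg7 and Gzmb, which had counts in every Sham library, were 4.56-fold, 13.7-fold and 16.1-fold higher, while Gzmc, Gzmd and Gzme had at most 1 count in any Sham library. Among all 15010 genes 22.1% were called higher and 17.5% lower in this comparison. Genes near 0 in Sham could pass the filter only through the injured libraries, so the count of 6 of 6 is a description and not support. Whole-iris RNA cannot tell more granzyme-expressing cells from more RNA per cell.

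Gzmb, the granzyme that cleaves caspases, was low in Sham (1, 4 and 5 counts) and higher in the injured controls (29, 57 and 69 counts) and the iLECko libraries (98, 76 and 101 counts). Every injured library lay above every Sham library, as for 33.9% of all genes in the comparison of injured controls with Sham. The mean rose from 0.188 ± 0.118 CPM (SD, n = 3) to 3.02 ± 1.14 CPM (SD, n = 3), a 16.1-fold difference (log2 fold change 3.96 ± 0.49 SE, adjusted p = 1.08e-04 by edgeR with Benjamini-Hochberg adjustment).

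Gzmc, the copy nearest to Gzmb in the cluster, had 0, 0 and 1 counts in Sham, 81, 132 and 121 in the injured controls and 167, 110 and 329 in iLECko libraries. It was near absent from Sham and present in all 6 injured libraries. Against the single Sham count, which was in replicate 3, the ratio of CPM after injury was 348, with a 95% counting interval from 62.5 to 13891 (adjusted p = 2.53e-05 by edgeR with Benjamini-Hochberg adjustment). This interval and the limits below cover counting error only.

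Gzmd and Gzme, whose sequences are shown above, had 0 counts in every Sham library. Gzmd had 0, 205 and 289 counts in injured control replicates 1 to 3 and 469, 183 and 465 in the iLECko libraries. Gzme had 1, 292 and 476 in the former group and 818, 407 and 729 in the latter. Both were thus abundant in 5 of the 6 injured libraries and at the Sham level in injured control replicate 1. With Sham set to 3 counts per library, the mean of injured control irises was at least 56.7-fold higher for Gzmd (adjusted p = 0.0118 by edgeR) and at least 88.2-fold higher for Gzme (adjusted p = 0.00978 by edgeR). Leaving out replicate 3 of the injured controls lowered these limits to 35.7 and 51.0, and leaving out replicate 1 raised them to 85.0 and 132.1. When only the 6 libraries of the 2 groups entered the fit, neither gene passed the filter.

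Summed over Gzmc to Gzmg, which removes the split among these 5 copies but not that with Gzmn (12.6% of the windows of Gzmg occur there within 2 mismatches), the counts were 0, 0 and 1 in Sham, 83, 632 and 886 in the injured controls and 1461, 705 and 1530 in iLECko libraries. The sum was called higher after injury (adjusted p = 0.000287 by edgeR with Benjamini-Hochberg adjustment). Its spread within the injured control group was wide, at 31.0 ± 23.5 CPM (SD, n = 3).

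**Figure D3:**
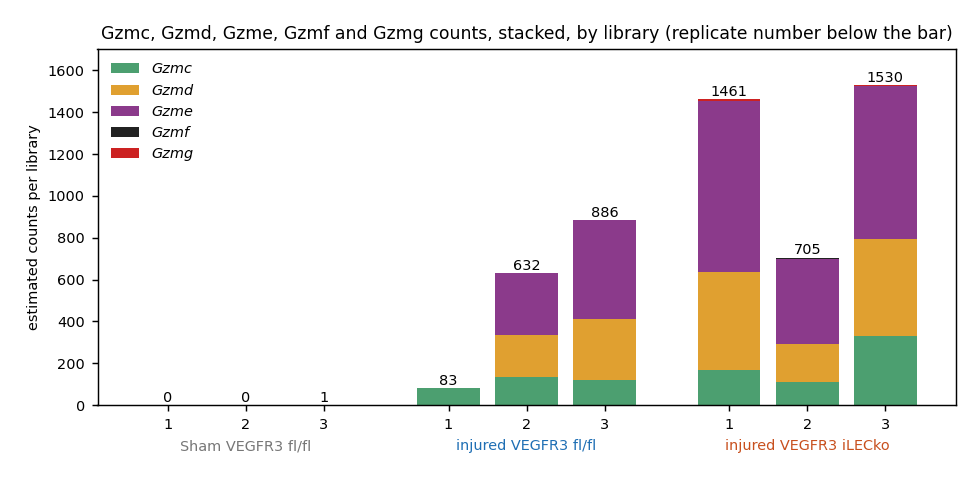
Estimated counts of Gzmc, Gzmd, Gzme, Gzmf and Gzmg, stacked, in each of the 9 libraries, with the summed count above each bar. Gzmc makes up nearly all of the 83 counts of injured control replicate 1, while Gzme and Gzmd make up most of the bars of the other 5 injured libraries.

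Gzmd and Gzme made up most of the summed Gzmc to Gzmg counts in 5 injured libraries, and Gzmc in the sixth. Gzme took 58.8% (95% exact binomial interval 54.3 to 63.1) and 62.2% (58.7 to 65.7) of the Gzmd and Gzme counts in injured control replicates 2 and 3, and 63.6% (60.9 to 66.2), 69.0% (65.1 to 72.7) and 61.1% (58.2 to 63.8) in iLECko replicates 1 to 3. The groups overlapped in this share, though the intervals of replicate 2 of the 2 groups did not. Gzmc took 97.6% (91.6 to 99.7) of the summed Gzmc to Gzmg counts in injured control replicate 1, against 11.4% to 21.5% in the other 5 injured libraries. These 5 also differed, from 11.4% (9.84 to 13.2) in iLECko replicate 1 to 21.5% (19.5 to 23.6) in iLECko replicate 3.

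Gzmf and Gzmg, the copies that lie between Gzmd and Gzmc, were scarce throughout. Gzmf had 0 counts in Sham, 1, 0 and 0 in the injured controls and 0, 1 and 1 in iLECko libraries, at or under the limit of 3 counts in every library. Gzmg had 0 counts in Sham, 0, 3 and 0 in the injured controls and 7, 4 and 6 in iLECko libraries. Gzmg was thus higher in every iLECko library than in any other, by a ratio of 5.59 to injured control with a 95% counting interval from 1.60 to 29.5 (exact permutation test, p = 0.1, or 0.3 adjusted over 15 such tests). Gzmg shares 33.8% of its windows with Gzme and 28.8% with Gzmd within 2 mismatches, and the part of these genes in its counts was not tested. Gzmn, the cluster gene outside the set, had 0 counts in Sham, 0, 8 and 6 in the injured controls and 14, 2 and 2 in iLECko libraries.

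The tryptases of chromosome 13 differed from each other. Gzma, the tryptase of circulating NK cells and cytotoxic T cells, had 8, 5 and 5 counts in Sham, 30, 14 and 34 in the injured controls and 17, 12 and 18 in iLECko libraries. After injury it was 4.56-fold higher (log2 fold change 2.16 ± 0.43 SE, adjusted p = 0.0020 by edgeR with Benjamini-Hochberg adjustment), with no overlap. Gzmk, a marker of memory-like CD8 T cells, had 3 counts in iLECko replicate 2 and 0 in the other 8 libraries, so that no level of it was detectable at this depth.

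Prf1, without whose product granzymes do not reach the target's cytosol, was low in all groups. It had 1, 0 and 1 counts in Sham, 5, 7 and 9 in the injured controls and 8, 12 and 2 in iLECko libraries. All 6 injured libraries were above Sham, by a ratio of 11.01 in injured control irises with a 95% counting interval from 2.69 to 97.0 (exact permutation test, p = 0.1, or 0.3 adjusted over 15 tests). Between the injured groups the counts of Prf1 overlapped, with a ratio of 1.03.

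Nkg7, a membrane protein of cytotoxic granules needed for their release, had 2, 4 and 1 counts in Sham, 58, 13 and 19 in the injured controls and 17, 9 and 8 in iLECko libraries. The 58 counts of injured control replicate 1 stood apart. In that group Nkg7 was 13.7-fold higher than in Sham (log2 fold change 3.70 ± 0.76 SE, adjusted p = 0.0025 by edgeR with Benjamini-Hochberg adjustment), or 7.07-fold without that library. Without Sham replicate 2, the Sham library with the most counts, the log2 fold change was 4.30.

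Levels of different genes were compared per transcript length, as approximate transcripts per 1e6 transcripts (TPM) from the longest GENCODE transcript of each gene. Among the 10 genes Gzma stood first in Sham irises, at 0.978 ± 0.306 TPM (SD, n = 3), before Nkg7 (0.423 ± 0.265 TPM) and Gzmb (0.373 ± 0.233 TPM). Gzmm, a granzyme outside the 10 that is described below, was at 3.43 ± 0.892 TPM there. In injured control irises the order was Gzme at 39.7 ± 37.0 TPM, Gzmd at 24.3 ± 21.8 TPM, Gzmc at 17.3 ± 4.93 TPM, Gzmb at 5.03 ± 2.16 TPM, Nkg7 at 4.56 ± 3.47 TPM, Gzma at 3.58 ± 1.44 TPM and Prf1 at 0.393 ± 0.126 TPM (SD, n = 3 each). Gzme and Gzmd did not differ beyond their spread from Gzmc, nor Gzmb, Nkg7 and Gzma from each other, while Gzmc lay above Gzmb and Prf1 below Gzma in each library. In iLECko irises Gzme had 106.1 ± 33.9 TPM, Gzmd 57.6 ± 24.9 TPM, Gzmc 33.8 ± 19.0 TPM and Gzmb 9.55 ± 1.31 TPM. There Gzma (2.35 ± 0.459 TPM) came before Nkg7 (1.92 ± 0.804 TPM), again without a difference beyond the spread, and Prf1 stood at 0.445 ± 0.310 TPM.

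Mean whole-iris Flt4 was not lower in the iLECko libraries, which cannot show whether it was deleted in lymphatic endothelium. Between iLECko and injured control irises edgeR called 0 of the 6 tested genes, and 1.04% of all genes. The unadjusted edgeR p was under 0.05 for 1 of the 6, Nkg7, as for 24.5% of all genes. DESeq2 likewise called 0 of the 6, had 1 (Gzmb) at an unadjusted p under 0.05, and gave no adjusted p for Gzma and Nkg7. The direction was not common to the genes. Gzmb, Gzmc, Gzmd and Gzme had higher means in the iLECko libraries, and Gzma and Nkg7 had lower ones.

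Gzmb was the tested gene whose injured groups did not overlap, with 3.02 ± 1.14 CPM against 5.28 ± 0.847 CPM (SD, n = 3 each), a difference of 0.80 ± 0.37 (SE) on the log2 scale (edgeR, adjusted p = 0.214 with Benjamini-Hochberg adjustment). No overlap between these groups was seen for 26.7% of all genes. For Gzmc the difference was 0.83 ± 0.40 (SE; edgeR, adjusted p = 0.228), and only replicate 3 of the iLECko group, with 329 counts, lay far above the other group. The differences were 1.17 ± 1.07 (SE) for Gzmd (edgeR, adjusted p = 0.527) and 1.34 ± 1.01 (SE) for Gzme (edgeR, adjusted p = 0.437). They were 0.59 and 0.76 without injured control replicate 1, and 1.84 and 2.13 without replicate 3 of that group. The sum of Gzmc to Gzmg differed by 1.20 (edgeR, adjusted p = 0.259), with iLECko replicate 2 inside the range of injured control replicates 2 and 3. Without injured control replicate 1 the difference of the sum was 0.70.

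Gzma was lower in the iLECko libraries by a log2 difference of -0.76 ± 0.39 (SE; edgeR, adjusted p = 0.256), with replicate 2 of the injured control group inside the iLECko range. Nkg7 differed by -1.44 ± 0.63 (SE; edgeR, adjusted p = 0.198), or -0.50 without injured control replicate 1.

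**Figure D4:**
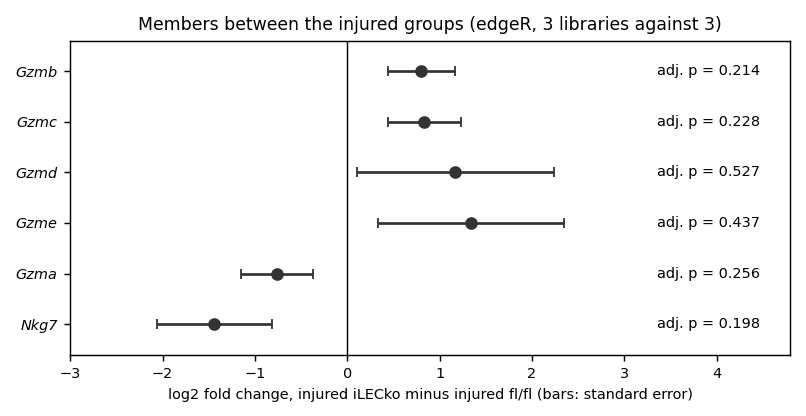
Log2 fold change of the 6 tested genes, iLECko minus injured control, with standard errors as bars and adjusted p-values of edgeR's quasi-likelihood test beside them. Gzmb, Gzmc, Gzmd and Gzme lie above 0, Gzma and Nkg7 below, and the smallest adjusted p is 0.198.

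Set against Sham, which also served the first comparison, the iLECko group had all 6 tested genes called higher, where 19.7% of all genes were higher and 15% lower. Gzmb was 28.1-fold higher (adjusted p = 4.51e-05 by edgeR). Gzmc had a ratio of 620 to its single Sham count, with a 95% counting interval from 111.2 to 24604 (adjusted p = 1.63e-05 by edgeR), and the limits for Gzmd and Gzme were at least 127.9-fold (adjusted p = 0.00646 by edgeR) and at least 223.6-fold (adjusted p = 0.00472 by edgeR). Gzma was 2.69-fold higher (adjusted p = 0.0229 by edgeR) and Nkg7 4.995-fold (adjusted p = 0.0401 by edgeR), a log2 fold change of 2.26 that was 2.86 without Sham replicate 2. These 2 calls were the weakest, since leaving out Sham replicate 2 or 3 or iLECko replicate 1 or 3 ended that of Gzma (adjusted p from 0.0591 to 0.0779), and leaving out Sham replicate 1 or 3 or any iLECko replicate ended that of Nkg7 (adjusted p from 0.0512 to 0.121). When Y-linked expression entered the fit as a covariate, Gzmb and Gzmc were the genes called.

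Markers of the cells that can carry these genes moved with injury too. Among all genes 22.1% were called higher in injured control than in Sham irises. Markers near 0 in Sham could pass the filter only through the injured libraries. Of 8 T cell markers all 8 were tested and called higher in injured control than in Sham irises, with a median log2 fold change of 4.58 against 0.010 over all genes. Cd3e, a chain of the T cell receptor complex, had 0, 1 and 3 counts in Sham, 23, 33 and 24 in the injured controls and 8, 12 and 5 in iLECko libraries. The summed CPM of the list ran from 12.6 to 14.6 in Sham, from 140.1 to 346.8 in the injured controls and from 167.7 to 313.5 in iLECko libraries, but most of it came from Thy1, which fibroblasts and neurons also express. Between the injured groups Cd3e, Cd3d, Cd3g, Cd2 and Cd5 were lower in every iLECko library than in any injured control library. No overlap there, in either direction, was seen for 26.7% of all genes. Cd247, Lck and Thy1 overlapped, and edgeR called 0 of the 8. The CD8 markers Cd8a and Cd8b1 were both called higher after injury. Their sum was 0.113 to 0.332 CPM in Sham, 0.937 to 4.43 in the injured controls and 0.863 to 3.57 in iLECko libraries, and its highest value was in injured control replicate 1, the library with the fewest Gzmb, Gzmd and Gzme counts of that group.

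Of 17 NK cell and innate lymphoid cell markers 7 were tested and 6 were called higher after injury, among them Klrk1 (log2 fold change 5.03, adjusted p = 3.67e-05 by edgeR) and Cd244a (4.71, adjusted p = 6.55e-06 by edgeR), both activating receptors that some T cells and myeloid cells also carry. Ncr1, which defines NK cells, was not tested and had 2, 0 and 0 counts in Sham, 11, 4 and 4 in the injured controls and 2, 2 and 5 in iLECko libraries. Their summed CPM was 10.9 to 13.0 in Sham, 47.7 to 67.1 in the injured controls and 49.9 to 83.9 in iLECko libraries, and 2 of the 17, Klrc1 and Klra9, were at 0 in every Sham library. Most of this sum came from Itga1, Itga2 and Cd244a, which other cells also carry. These 3 summed to 34.2 to 59.0 CPM in the injured controls and 44.3 to 79.3 in iLECko libraries, an overlap with the highest value in the latter. After seeing the values, the other 14 markers were summed apart. They came to 1.16 to 1.63 CPM in Sham, 8.14 to 13.5 in the injured controls and 4.66 to 5.89 in iLECko libraries. These ranges did not overlap, and no overlap between the injured groups was seen for 26.7% of all genes. Among these 14, Klrd1, a receptor chain of NK cells and CD8 T cells, had 38, 24 and 29 counts in the injured controls against 18, 18 and 9 in iLECko libraries (edgeR, adjusted p = 0.165), and Klrk1 had 53, 29 and 54 against 24, 35 and 16 (edgeR, adjusted p = 0.181). Cd163l1, the 1 marker of gamma-delta T cells listed in the files, was at 0 in Sham and had 108, 177 and 151 counts in the injured controls and 51, 121 and 88 in iLECko libraries. Of the 40 tested markers of 9 lists, edgeR called 0 between the injured groups, and 1.04% of all genes. Its unadjusted p was under 0.05 for 13 of the 40, and for 24.5% of all genes. DESeq2, which gave no adjusted p for 13 of the 40, called 2, Cd3g and Bst2, both lower in iLECko libraries. The part of these cells in the granzyme counts was not tested.

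**Figure D5:**
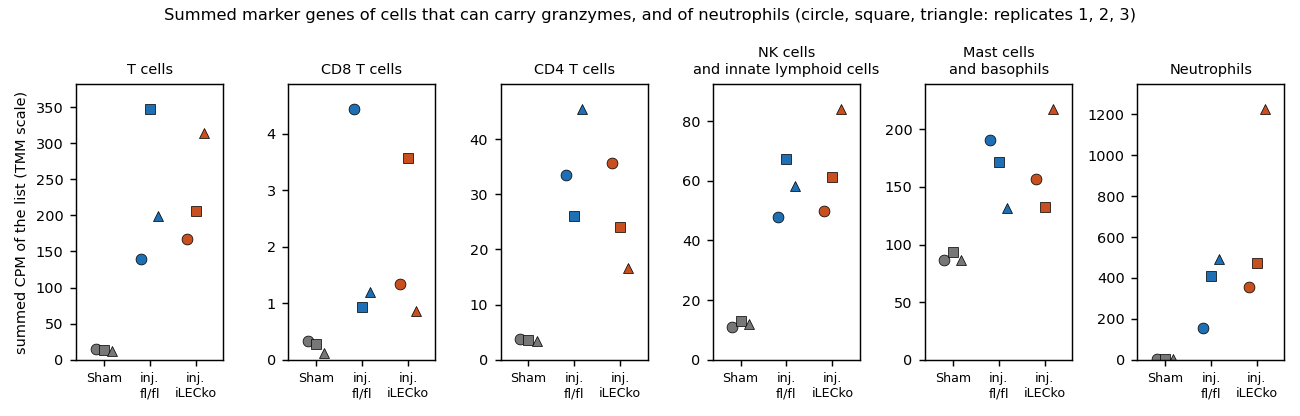
Summed CPM on the TMM scale of 6 marker lists in each library, with circles, squares and triangles for replicates 1, 2 and 3; each panel has its own axis from 0. All 6 sums are higher in the 6 injured libraries than in Sham, and the injured groups overlap in each of the 6 lists. Most of the mast cell and basophil sum in iLECko libraries is Kit and Hdc, with means of 65.9 and 78.1 CPM. Cpa3 and Tpsb2 had lower means there than in Sham, at 3.74 against 5.78 CPM and 9.34 against 14.4 CPM. The tested genes of this list had a median log2 fold change of -0.47 in iLECko against Sham irises. Most of the T cell sum is Thy1, and most of the NK cell sum is Itga1, Itga2 and Cd244a.

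Set against T cell receptor genes, the counts of the granule genes with no near-identical copy (Gzma, Gzmb, Gzmk, Prf1 and Nkg7) were 0.9104, 0.619 and 1.16 per count of Cd3d, Cd3e and Cd3g in injured control replicates 1 to 3. They were 3.33, 1.53 and 3.00 in the iLECko libraries, and 12, 13 and 3 in Sham libraries, on only 1, 1 and 4 Cd3 counts. The ratio was thus higher in each iLECko library than in any injured control library, with 42, 73 and 43 Cd3 counts in the former and 134, 147 and 113 in the latter. Gzmb made up 98 of 140, 76 of 112 and 101 of 129 of these granule counts in iLECko libraries. In the injured controls it made up 29 of 122, 57 of 91 and 69 of 131. Gzma and Nkg7 had lower means in iLECko libraries. No overlap between the injured groups was seen for 26.7% of all genes. Neither Cd3d, Cd3e nor Cd3g was called between the injured groups (adjusted p from 0.0913 to 0.23 by edgeR), and the ratio, made of values already described, was given no test.

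Other genes of granule biology were described by lists. The counts of called genes below stand beside 22.1% of all genes called higher and 17.5% called lower in injured control against Sham irises. Of the other granule proteins, 4 of 7 were tested, and Ctsw (log2 fold change 4.11, adjusted p = 8.92e-05 by edgeR), a cathepsin of cytotoxic cells, Srgn (3.07, adjusted p = 7.92e-06 by edgeR), the proteoglycan that packs granules in many blood cells, and Lamp1 (0.84, adjusted p = 2.96e-05 by edgeR), a general lysosome protein, were called higher after injury. The median of the 4 was 1.96. Gzmm, a granzyme of NK cells, ran the other way, with 19, 30 and 33 counts in Sham, 18, 16 and 9 in the injured controls and 12, 9 and 9 in iLECko libraries. It was called lower in iLECko than in Sham irises (log2 fold change -1.40, adjusted p = 0.0114 by edgeR) and not in injured control irises (-0.85, adjusted p = 0.0698 by edgeR). Fasl, the death ligand, had 0 counts in Sham and 2 to 6 in each injured library.

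All 4 genes of granzyme processing were called higher after injury, with a median log2 fold change of 1.71. Ctsc, the peptidase that removes the propeptide of granzymes, rose by 1.41 (adjusted p = 1.57e-05 by edgeR), Ctsh by 2.01 (adjusted p = 0.00037 by edgeR) and Ctsl by 0.79 (adjusted p = 9.69e-05 by edgeR). All 3 are also made by macrophages. The remaining gene, Cst7, an inhibitor of Ctsc named after its values were seen, had 0, 4 and 1 counts in Sham, 30, 33 and 31 in the injured controls and 15, 10 and 12 in iLECko libraries.

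Of 8 granule exocytosis genes 1 was called higher and 1 lower after injury, with a median of 0.16. Unc13d, which primes granules for fusion, rose by 1.73 (adjusted p = 4.03e-05 by edgeR). Rab27a, which docks granules in cytotoxic cells and melanosomes in pigment cells, fell by 1.80 (adjusted p = 2.92e-06 by edgeR), from 6061 to 6422 counts in Sham libraries to 1305 to 1927 in injured control libraries. The pigment cell genes Tyr and Mlana were also called lower after injury, and their part in the fall of Rab27a was not tested.

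Of 6 serpin genes, only some of them reported inhibitors of granzymes, 5 were called higher, with a median of 2.43. Serpina3g rose by 5.84 (adjusted p = 3.23e-05 by edgeR), from 4 to 9 counts in Sham libraries to 180 to 556 in injured control libraries, and Serpina3n, a reported inhibitor of granzyme B, by 3.47 (adjusted p = 8.37e-05 by edgeR). Serpinb9b, a reported inhibitor of granzyme M, rose by 2.46 (adjusted p = 0.0038 by edgeR) and Serpinb6b by 2.39 (adjusted p = 1.36e-05 by edgeR). Serpinb9, the classical inhibitor of granzyme B, was the exception, at 0.26 (adjusted p = 0.0864 by edgeR), with 869 to 1020 counts in Sham and 999 to 1232 in injured control libraries.

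Of 9 genes of granzyme uptake, granzyme substrates and gasdermins, 4 were called higher, with a median of 0.41. Among them were Gsdmd (1.79, adjusted p = 5.74e-06 by edgeR), a pore-forming gasdermin, and Bid (0.86, adjusted p = 0.00903 by edgeR), which granzyme B cleaves directly. Igf2r, an uptake receptor for granzyme B, differed by 0.25 (edgeR, adjusted p = 0.115). Gsdme, the gasdermin cleaved by granzyme B, had -0.56 (adjusted p = 0.00544 by edgeR), short of the 1.5-fold limit.

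Of 17 regulators of the cytotoxic program 13 were tested, 7 were called higher and 1 lower, with a median of 1.117. Runx3, the RUNX factor of cytotoxic T cells, rose by 4.37 (adjusted p = 9.21e-07 by edgeR), with 14 to 18 counts in Sham, 244 to 390 in the injured controls and 313 to 442 in iLECko libraries. Il2rg and Il2rb, chains of the receptors for IL-2 and IL-15, rose by 3.73 (adjusted p = 8.91e-08 by edgeR) and 3.32 (adjusted p = 1.68e-05 by edgeR), and Stat4 by 3.36 (adjusted p = 3.07e-05 by edgeR). Tbx21, the T-bet gene, was not tested, with 0 counts in Sham, 10, 2 and 7 in the injured controls and 0, 4 and 4 in iLECko libraries. The gene called lower, Hopx, changed by -0.63 (adjusted p = 0.00109 by edgeR) and was named after its values were seen.

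Between the injured groups edgeR called 0 of the 49 tested genes of these lists and of the cluster's neighbours, and 1.04% of all genes. Its unadjusted p was under 0.05 for 17 of the 49, and for 24.5% of all genes. DESeq2, which gave no adjusted p for 4 of the 49, called 4 genes that are among these 17, Stx11 and Prdm1 higher and Ctsh and Gsdmd lower in iLECko libraries. Against Sham, 29 of the 49 were called higher and 2 lower in iLECko irises, where 19.7% of all genes were higher and 15% lower. In injured control irises 26 were higher and 2 lower, where 22.1% of all genes were higher and 17.5% lower.

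The genes whose log2 CPM followed a granule gene most closely were sought among 14221 genes, and their correlations are given as a description, since they were picked as the highest and all 9 libraries share the large change with injury. Over 9 libraries Gzme was followed by Gzmd (Pearson r = 0.998, Spearman rho = 0.956), with which it shares reads, then by Adamts12 (r = 0.991), Cxcl3 (r = 0.983), Shc2 (r = 0.982) and C1qtnf6 (r = 0.981). Over the 6 injured libraries it was again followed by Gzmd (r = 0.998), then by Grtp1, Pdcd6ip, Rprm and Tmod1 (r from 0.995 to 0.997). Among the genes that followed Gzmb over 9 libraries were Stat3, Vdr, Nek6 and Gcnt4 (r from 0.988 to 0.990), and over the 6 injured libraries it was followed by Ptgfrn, Hccs, Chsy1, Dlc1 and Tmtc4 (r from 0.990 to 0.995). Prf1, whose counts of 12 or fewer make any order uncertain, was followed by Tbx6, Tgm2, Trim25, Cdk6 and Rasgrp1 over 9 libraries (r from 0.940 to 0.963) and by Tbx2, Zfp791, Nog, Mob3b and 4930426D05Rik over the 6 injured ones (r from 0.943 to 0.987). Within the set, Gzmb and Gzme had r = 0.940 over the 6 injured libraries and Nkg7 had r = -0.877 with Gzme and 0.728 with Gzma. Of these 6 libraries, injured control replicate 1 was the highest in Nkg7 and the lowest in Gzme, while Gzma was highest in replicate 3 of that group.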

How the data were processed

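Iris RNA was sequenced in 9 libraries, 3 per group, as single-end reads of 50 bases. Per the labels' processing notes and the paper's methods, the authors aligned filtered reads with HISAT2 2.0.4 and Bowtie2 2.2.5 to mm10 and compared groups with DESeq2 1.4.5. The annotation and the program that estimated the counts are not given in the sources used here. The deposited values are estimated counts per gene, not normalized. All values of the 10 genes were whole numbers. A combined table with identical values was not used.

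Estimated counts were rounded, genes were filtered by filterByExpr (15010 of 18349 kept), and all 9 libraries were fitted together by edgeR 4.0.16 in R 4.3.3 with TMM factors and group as the only term. DESeq2 1.42.0 served as an alternative. The rule for named genes took all 10 genes, the first gene of each list, and up to 4 called genes per list with the largest changes, no overlap and a mean of at least 1 CPM. The genes and lists were chosen with earlier results of these data known. Some genes that this rule named are not reported here. Limits against groups at 0 used 3 counts per library. Sequences were compared with Biopython 1.88.

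Nothing in the labels says that libraries came from separate experiments beyond separate pools of mice. The paper's methods mention 3 sequencing experiments and do not say how the libraries were divided among them. The p-values measure the spread between these pools, together with any difference between such experiments. Replicates differed by more than counting noise (chi-square per degree of freedom 5.21 to 78.2). On simulated data for the comparison of injured VEGFR3 fl/fl with Sham, 165 of 200 genes changed 3-fold among 15010 were recovered (82.5%), 0 in the wrong direction, with 5 false calls. The changed genes were drawn at random at their mean level over all libraries, with the same spread in every group. This rate therefore does not cover genes near 0 in Sham, such as Gzmc, Gzmd and Gzme.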

Additional observations from a re-analysis of the deposited data

How the results depend on the processing

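Alternatives covered normalization (RLE, upper quartile, library size only), no filter on low counts, DESeq2, fitting only the libraries compared, no fold change threshold, a replicate block, a covariate for Y-linked expression, and leaving out each library in turn. The count of granule genes called between injured VEGFR3 fl/fl and Sham was 6 with each library left out, and 4 to 7 over all alternatives. Between injured VEGFR3 iLECko and injured VEGFR3 fl/fl it was 0 under all of them. Between injured VEGFR3 iLECko and Sham it was 4 to 6 with a library left out, and 2 with the Y-linked covariate, where Gzma (adjusted p = 0.361), Nkg7 (0.0768), Gzmd (0.0812) and Gzme (0.0659) lost their calls by edgeR; the cause was not tested. No direction of a call was reversed. The log2 fold change of summed Gzmc to Gzmg ranged, with a library left out, from 9.67 to 12.07, from 0.70 to 1.76 and from 10.97 to 13.27 in the 3 comparisons. It depends on the single Sham count and is no measure of size against Sham. Without a filter 7, 0 and 8 genes were called, Prf1 being the addition in injured VEGFR3 fl/fl and Prf1 and Gzmg in injured VEGFR3 iLECko irises.

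Deviations of samples with the same replicate number correlated by -0.385 to 0.121, over 0.1 in 1 of 9 pairs. Those of samples with different numbers correlated by -0.246 to 0.312, over 0.1 in 5 of 18 pairs. No link by replicate number was thus seen. Since the deviations sum to 0 within each group, this check cannot exclude a run or batch shared between groups. With the replicate block 6, 0 and 6 genes were called, and 11 higher and 13 lower among all genes between the injured groups, against 86 and 70 without the block. DESeq2 called 344 higher and 282 lower there, and a fit of those 6 libraries alone 0 and 0. Scaling by library size alone moved the median of all genes to -0.16 (log2) in injured VEGFR3 fl/fl against Sham, with no change in the granule genes called. Counts of 12 or fewer limit what can be said of Prf1, Gzmf, Gzmg and Gzmk.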

Other observations

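The granzyme cluster of chromosome 14 borders on a group of genes for proteases of mast cells, basophils and neutrophils, and 8 of them (Cma1, Cma2, Mcpt1, Mcpt2, Mcpt9, Mcpt4, Mcpt8 and Ctsg) lie within 161.1 kb, from chr14:55941451 to chr14:56102574 in GRCm38.p6. Of 5 tested, Mcpt2 and Mcpt8 were called higher in injured control than in Sham irises, as were 22.1% of all genes. Both could pass the filter only through the injured libraries. Mcpt2, a chymase of mucosal mast cells, had 0 counts in every Sham library, 62, 54 and 91 in the injured controls and 54, 0 and 44 in iLECko libraries (adjusted p = 0.00567 by edgeR for injured control against Sham). Mcpt8, a protease of basophils, had 0 counts in Sham, 4, 24 and 19 in the injured controls and 27, 5 and 63 in iLECko libraries (adjusted p = 0.016 by edgeR). Mcpt4 and Cma1, chymases of connective tissue mast cells, ran from 152 to 177 and from 116 to 147 counts in Sham. They were highest in injured control replicate 1, at 476 and 435, and lowest in iLECko replicate 2, at 6 and 11. The mast cell peptidase gene Cpa3 had 462 and 9 counts in the same 2 libraries. The first of these is the library in which Gzmd and Gzme were at 0 and 1 count, and the part of cell makeup in that was not tested. Ctsg, a protease of neutrophils, had at most 4 counts in any library.

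Within a library, Gzmb had 0.967, 4.07 and 2.03 counts per count of Gzma in injured control replicates 1 to 3 and 5.76, 6.33 and 5.61 in the iLECko libraries. In Sham libraries, with 5 or fewer Gzmb counts each, the ratio was 0.125 to 1.00. Each iLECko library thus lay above each of the others. This ratio was picked after the values had been seen and was given no test.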
